A study of Mus musculus with 2 samples.

Results

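Galectins are lectins that bind beta-galactosides on glycoproteins and glycolipids, inside and outside the cell. The members described here are 5 mouse genes, namely the galectin genes Lgals1, Lgals3, Lgals8 and Lgals9, and Lgals3bp, the gene of a secreted glycoprotein that binds galectin-3. They were chosen by family name from 33696 mouse gene features, with their levels by cell type, cluster and treatment already known, so those levels are given as a description. The mouse features hold 6 further galectin family genes outside the members. Galectin-1 and galectin-9 are known for dampening T cell responses, galectin-3 for crosslinking glycoproteins on T cells and for its high level in macrophages, and galectin-8 for marking damaged endosomes so that autophagy can remove them.

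The cells were CD45+ leukocytes sorted from subcutaneous tumours in mice whose genotype label is Human FCR, that is, mice that carry human Fc gamma receptors. The tumour line was MC38, derived from a mouse colon carcinoma. Each mouse had been implanted with 2000000 cells. Treated mice got 2 injections, 3 days apart, of 100 µg of a human IgG1 antibody against mouse GITR, a costimulatory receptor of T cells, and cells were taken 4 days after treatment. The groups, as the deposited cell table names them, are GA-aFuc, an agonist with an enhanced Fc part (1 mouse), GITR/Syn GA-aFuc, a non-agonist with an enhanced Fc part (1 mouse), N297A, an agonist that is Fc-null (2 mice), and Untreated (2 mice), for which the labels give PBS as the control. All share the tumour line and the human Fc receptors, the stated design had 3 mice for each treatment, and the animals' age, sex and strain background are not given in the sources used here. The mice were pooled in 1 droplet library, and each hashtag was taken as 1 mouse, also for the numbers of mice above. In all 8716 annotated cells were used, 1379 to 1519 per mouse, with 16479710 to 19339165 mouse UMIs per mouse.

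Levels are given as CPM, a gene's UMIs scaled to 1000000 mouse UMIs and computed from the summed cells of a mouse and cell type, for mice with at least 10 cells of that type. Cell types are the deposited names. The leading markers sat where the names put them: Cd3e, a T cell receptor subunit, had 633 CPM in CD8 T cells and 1.70 in macrophages. Ncr1, an NK cell receptor, had 252 CPM in NK cells and 0.592 in macrophages, and C1qa, a complement subunit made by macrophages, had 5571 CPM in macrophages and 172 in CD8 T cells. The name CD4 T cells rests on few cells (97). A 4-gene CD4 list summed higher in CD8 T cells (2360.1 CPM) than in any other type. Its genes Cd3d, Cd3e and Trac are also on the CD8 list, so this sum does not bear on the CD4 name. The cDC2 and monocyte lists summed highest in the 21 pDC (662 and 8494 CPM), ahead of cDC2 (463 CPM) and monocytes (6015 CPM). Droplets with 20 to 200 mouse UMIs, read as free RNA, held 2793 CPM of Lgals1, 1331 of Lgals3, 290.3 of Lgals3bp, 52.2 of Lgals8 and 150.2 of Lgals9. A level in any cell type, low or high, can therefore hold free RNA. For Lgals1 the free RNA level was above the pooled level of every cell type, the highest being 2752 CPM in pDC. The part of free RNA in the Lgals1 levels was not tested. In summed cells of a type, fewer expressing cells and less RNA per cell cannot be told apart.

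RefSeq promoter windows, of 300 bases around an annotated start site, were at hand for 4 of the 5 members. All 4 were searched for motifs, since the levels of these genes are set beside interferon induced genes further on. The windows of Lgals9 and Lgals3bp, those with a match to an interferon motif, are shown up to base 30 after the start. The build is GRCm38.p6 and both genes lie on the minus strand, Lgals9 at chr11:78984895-78985174 and Lgals3bp at chr11:118401930-118402209. Capitals mark matches, on either strand, to GAAANNGAA, the core of an interferon stimulated response element, or to AANNGAAA, an interferon regulatory factor core that overlaps it and was searched for after the sequences had been seen.
Lgals9: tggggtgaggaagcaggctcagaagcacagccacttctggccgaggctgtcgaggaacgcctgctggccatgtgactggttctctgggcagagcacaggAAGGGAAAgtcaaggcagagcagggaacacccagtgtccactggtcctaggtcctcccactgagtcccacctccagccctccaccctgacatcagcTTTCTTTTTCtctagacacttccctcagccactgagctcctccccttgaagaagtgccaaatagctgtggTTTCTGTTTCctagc
Lgals3bp: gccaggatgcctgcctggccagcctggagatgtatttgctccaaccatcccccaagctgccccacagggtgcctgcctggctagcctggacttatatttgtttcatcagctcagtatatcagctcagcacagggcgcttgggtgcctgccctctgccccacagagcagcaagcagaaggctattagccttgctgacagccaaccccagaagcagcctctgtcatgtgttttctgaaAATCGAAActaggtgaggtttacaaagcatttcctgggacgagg
The window of Lgals9 held GAAANNGAA in 2 places, which overlap AANNGAAA matches, and a further AANNGAAA match upstream of both. The window of Lgals3bp held 1 AANNGAAA match, AATCGAAA, and no GAAANNGAA. The windows of Lgals3 and Lgals8 held neither of these motifs. GAAANNGAA was in 8.56% and AANNGAAA in 23.9% of 32851 mouse promoter windows of the same length, and each was in 7 of the 9 interferon induced list genes that had a window. No member's window held TTCNNNGAA, the gamma activated site, which 8.30% of windows held, and GGGCGG, the core of the GC box, was in the window of Lgals3 (in 2 places) and in 35.7% of windows. These are matches of letters and not bound sites.

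Among the types with values by mouse, Lgals1 was highest in lymphocytes. In CD8 T cells its lowest, median and highest levels over 6 mice were 2132, 2450.4 and 2815 CPM, and in Tregs they were 1694, 2390 and 2970 CPM over 4 mice. NK cells had 1645, 1871 and 2010.2 CPM, and CD4 T cells 890.4, 1524 and 2538 CPM. These lymphoid ranges overlapped from one to the next. Macrophages had 825, 989.9 and 1067 CPM, and monocytes 807, 894 and 1107 CPM, and none of the 6 macrophage values reached the lowest NK cell value. The lowest level among the 5 larger cell types was in cDC2, with 500.3, 560.0 and 836 CPM, so that the mean of CD8 T cells was 4.05 times that of cDC2. The 3 mregDC samples lay lower still, at 211, 347 and 463 CPM, and did not overlap cDC2. The 21 pDC, too few per mouse for a spread, held 2752 CPM in all.

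Among the 5 CD8 clusters Lgals1 differed 2.45-fold. It reached 3047 CPM in cluster 33, which also held the most Gzmb, the granzyme B gene, at 3954 CPM. It was 2510 CPM in cluster 38, whose cells carried 1119 CPM of Top2a, a topoisomerase of dividing cells. Cluster 23, with 101 CPM of Tcf7, a transcription factor of naive and memory T cells, and 96.6 CPM of S1pr1, a receptor for leaving tissue, had 1242 CPM of Lgals1, the lowest of the 5 CD8 clusters. Clusters 16 and 44 lay between, at 2235 and 2125 CPM. Over 51 clusters of at least 50 cells, the genes whose log2 level was most like that of Lgals1 were Farp1 (r = 0.84), Impdh1 (r = 0.83) and Ets1 (r = 0.82), out of 9292 genes compared. The clusters share 1 library and differ in depth, so these correlations describe and are not tested.

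Lgals3 was highest in myeloid cells. Monocytes had 1269, 1593 and 2362 CPM (lowest, median and highest of 6 mice), macrophages 1103, 1432 and 1825 CPM, and cDC2 687, 926 and 1183 CPM. Tregs had 556, 678 and 1351 CPM (4 mice), CD8 T cells 547, 681 and 1170.4 CPM, and the 3 mregDC samples 239, 421 and 1095 CPM. CD4 T cells had 159, 327 and 789 CPM, and NK cells 288, 342 and 535 CPM. Each of these ranges overlapped the next in order of the mean, while the lowest monocyte value exceeded the highest NK cell and CD8 T cell values. The mean of monocytes was 4.32 times that of NK cells. The 47 cDC1, with only 1 mouse at 10 cells, held 1810 CPM in all.

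**Figure D1:**
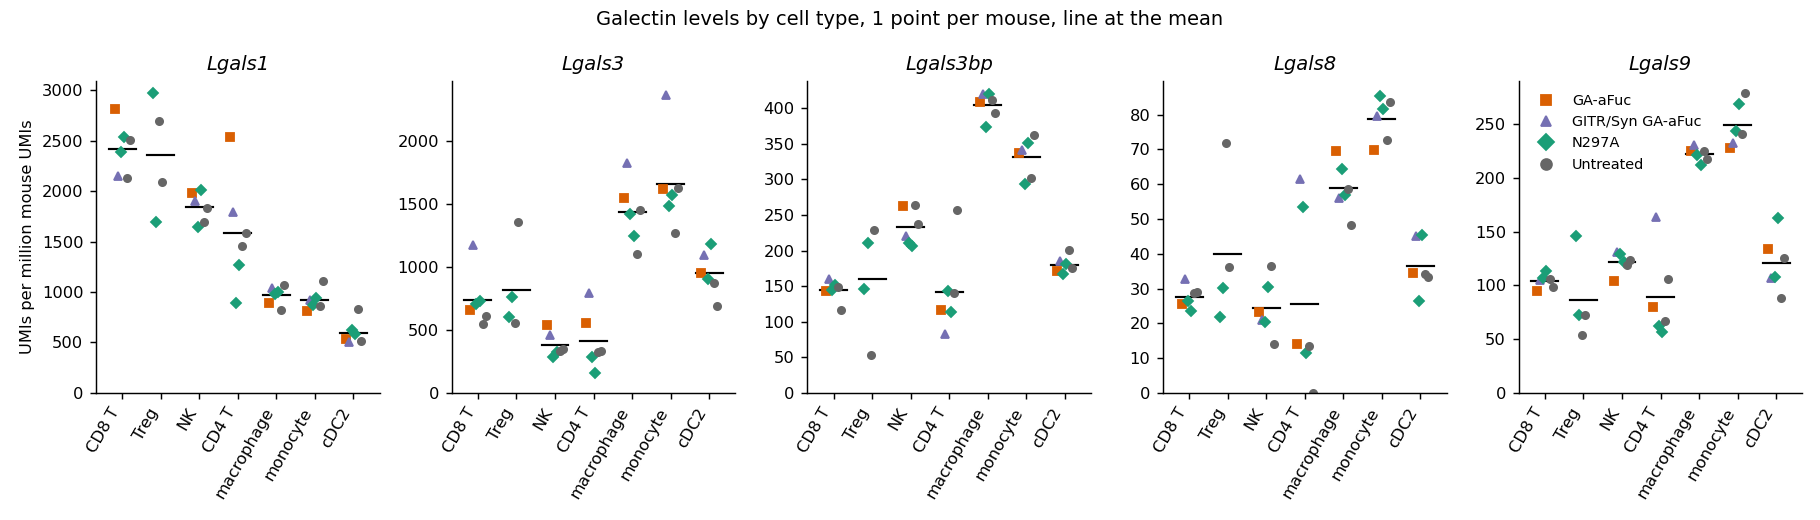
Levels of the 5 members in CPM (linear axis) by cell type, 1 point per mouse with at least 10 cells, coloured by treatment, with a line at the mean. Lgals1 was highest in CD8 T cells and Tregs, and the other 4 members in macrophages or monocytes.

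Part of the macrophage signal of Lgals3 came from few cells. Cluster 9 (227 cells) had 5627 CPM and cluster 39 (113 cells) 4405 CPM, against a median of 1113 CPM over the 22 macrophage clusters. In all 6 mice cluster 9 lay between 5086 and 6293 CPM. The 2 clusters together held 9.86% of the macrophages of the GA-aFuc mouse, 11.2% in the GITR/Syn GA-aFuc mouse, 8.65% and 6.16% in the N297A mice, and 4.61% and 8.70% in the Untreated mice, and they carried 14.6% to 28.3% of the macrophage Lgals3 UMIs. These same clusters had little Lgals9, 116 CPM in cluster 9 and 122 in cluster 39, the lowest values of the 22, and cluster 9 had the least Lgals3bp, at 207 CPM. Cluster 9 carried 696 CPM of Sqstm1, the p62 autophagy adaptor, against 219 in macrophages as a whole. It also carried 3275 CPM of an 8-gene lipid-associated macrophage list, second of the 22 macrophage clusters after cluster 12 with 4845 CPM, where Lgals3 was 2370.0 CPM. Cluster 12 held the most Trem2, a lipid-sensing receptor (727 CPM), Cd63, a tetraspanin of late endosomes (951 CPM), and Ctsd, the cathepsin D gene (1925 CPM). Across the 22 macrophage clusters Lgals3 and the lipid-associated list correlated with r = 0.80 on the log2 scale, and across 15 monocyte clusters with r = 0.21. Monocyte cluster 8 had the most Lgals3 of the monocytes, 3129 CPM. The genes most like Lgals3 over the 51 clusters were Hk2, a hexokinase of glycolysis (r = 0.87), Znhit1 (r = 0.86) and Esd (r = 0.85), and Hk2 too was highest in cluster 9, at 354 CPM.

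**Figure D2:**
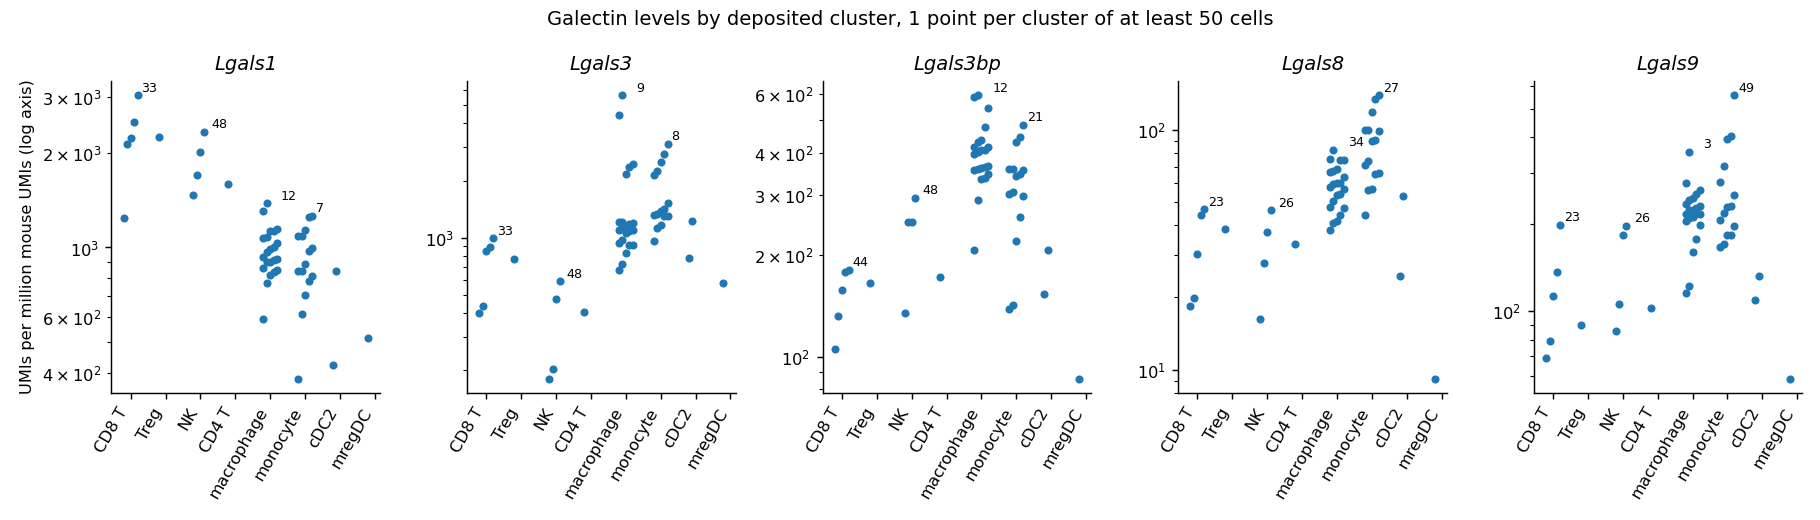
Pooled level of each member in CPM (log axis) in the 51 clusters of at least 50 cells, 1 point per cluster, by the cell type of the cluster, with the number of the highest cluster where a type has over 3. Macrophage clusters 9 (5627 CPM, numbered) and 39 (4405 CPM) stand above the other macrophage clusters for Lgals3.

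Lgals3bp was highest in macrophages, with 373, 411 and 420.0 CPM (lowest, median and highest of 6 mice). Monocytes had 294, 339.8 and 362 CPM and did not overlap them. NK cells came next at 206, 229 and 265 CPM, above cDC2 with 167, 178 and 201 CPM, and these ranges did not overlap either. CD8 T cells, at 117, 147 and 159.9 CPM, lay below NK cells in every mouse. The mean of macrophages was 2.81 times that of CD8 T cells. The clusters with the most were macrophage clusters 12 (594 CPM), 3 (585 CPM) and 51 (544 CPM) and, among monocytes, cluster 21 (486 CPM). Cluster 12 led the lipid-associated list and clusters 3 and 21 were among the 4 clusters with the highest interferon list sum. Cluster 51 was only at rank 32 by that sum, and monocyte cluster 27, also among those 4, had 220 CPM of Lgals3bp. The genes nearest to Lgals3bp over clusters were Plpp2 (r = 0.86), Extl3 (r = 0.86) and Gm56768 (r = 0.84).

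Lgals8 had the fewest UMIs of the members, 6316 in all used cells. Monocytes had 69.95, 80.6 and 85.4 CPM and macrophages 48.2, 57.8 and 69.6 CPM, without overlap. The lymphocytes were lower, with 23.5, 27.5 and 32.8 CPM in CD8 T cells and 14.1, 22.1 and 36.6 CPM in NK cells, and the mean of monocytes was 3.24 times that of NK cells. In cDC1 only 3 Lgals8 UMIs were counted in 47 cells, or 3.35 CPM with an exact 95% Poisson interval of 0.691 to 9.79 that covers counting error only. The highest cluster levels were in monocyte clusters 27 (139 CPM) and 49 (134 CPM). The genes most like it were Morrbid, a long noncoding RNA of short-lived myeloid cells (r = 0.91), AB124611 (r = 0.89) and Frrs1 (r = 0.86). The list of endosome and autophagy partners was uneven in the same cells. Calcoco2, the gene of the NDP52 adaptor that binds galectin-8 in human cells, was at 0 in every cell type and in free RNA, and Optn, another adaptor gene, had 4.19 CPM in monocytes and 4.96 in macrophages. Trim16, a gene of damage-induced autophagy, had 3.99 CPM in monocytes and 0.405 in macrophages. Among the higher ones, Tax1bp1, an adaptor gene, had 329 CPM in monocytes and 203 in macrophages, Map1lc3b, an LC3 gene, 199 in monocytes and 208 in macrophages, and Tbk1, a kinase of this pathway, 81.0 in monocytes and 68.5 in macrophages.

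Lgals9 had 228, 242 and 279 CPM in monocytes and 212, 223 and 230.4 CPM in macrophages, which overlapped. All other types with values in 6 mice lay lower: NK cells had 104, 123 and 131 CPM, cDC2 88.7, 116 and 163 CPM, CD8 T cells 94.8, 106 and 114 CPM, and CD4 T cells 56.9, 73.3 and 164 CPM. The mean of monocytes was 2.39 times that of CD8 T cells, the narrowest span of the 5 members. The macrophage level varied little between mice, with an SD of 6.39 CPM on a mean of 222 (n = 6). Havcr2, the gene of TIM-3, a proposed receptor of galectin-9, was highest, of the 5 larger types, in cDC2 (349 CPM) and monocytes (258 CPM), with 126 CPM in CD8 T cells.

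Clusters high in interferon induced genes were high in Lgals9. The summed CPM of a 12-gene interferon list was 22934 in monocyte cluster 49, 15212 in monocyte cluster 21, 13539 in monocyte cluster 27 and 11821 in macrophage cluster 3, the 4 highest of 51 clusters. Lgals9 in these was 557, 404, 392 and 356 CPM in the same order, which were also its 4 highest levels. Isg15, a ubiquitin-like protein induced by interferon, had 5410 CPM in cluster 49 and 2118 CPM in cluster 3. Among the CD8 T cells cluster 23 had 4040.1 CPM of the list and 199 CPM of Lgals9, the highest of the 5 CD8 clusters in both. Lgals9 and the list correlated with r = 0.80 over 15 monocyte clusters and r = 0.63 over 22 macrophage clusters. For Lgals8 these values were 0.68 and 0.47, for Lgals3bp 0.35 and 0.41, and for Lgals3 0.41 and -0.35. Lgals9's own nearest genes were Morc3 (r = 0.86), Lgals8 (r = 0.85) and Tor3a (r = 0.82). Deeper or shallower clusters, and the free RNA they share, enter these correlations, and their part was not tested.

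**Figure D3:**
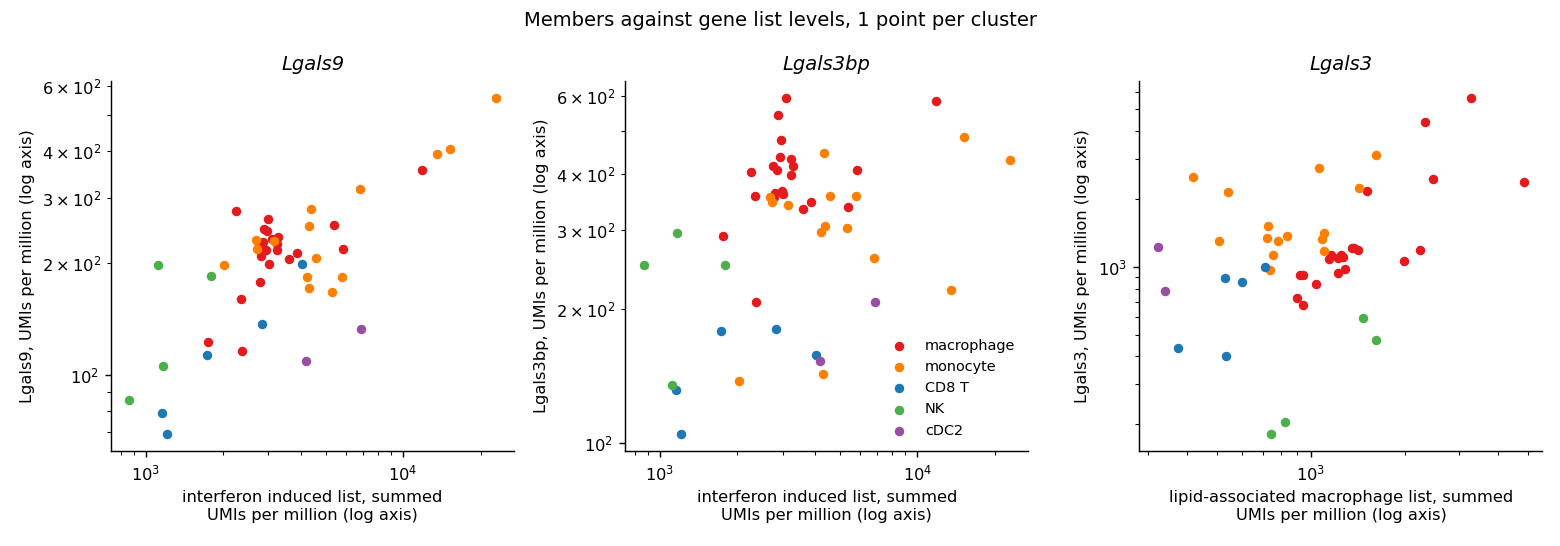
Each point is 1 cluster of at least 50 cells of the 5 larger cell types, with a member's level against the summed level of a gene list, both in CPM on log axes. Lgals9 is highest in the 4 clusters with the highest interferon sums (356 to 557 CPM), Lgals3bp varies with less relation to that list, and Lgals3 is highest in macrophage clusters 9 and 39, which are high in the lipid-associated list.

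Lgals3 in CD8 T cells and NK cells was set beside the genes that mark macrophages and monocytes, since those cells make up most of the sort. In CD8 T cells the Lgals3 level was 51.1% ± 8.84 of the same mouse's macrophage level (SD, n = 6), with a range of 41.9% to 64.1%. The 14 genes of a myeloid list lay between 3.02% and 8.98% of the macrophage level in these cells, with a median of 4.79%, and C1qa was at 3.21%. In NK cells Lgals3 was at 26.8% ± 4.95 (SD, n = 6). There 13 of the myeloid genes were between 2.22% and 6.12%, and Fcgr2b, an inhibitory Fc receptor, was at 16.9%. By the means over mice, Lgals3 stood above each of the 14 myeloid genes in both lymphocyte types, but in NK cells of N297A replicate 1 Lgals3 was at 20.3% and Fcgr2b at 20.8%. The other members were at 35.6% (Lgals3bp), 47.7% (Lgals8) and 47.0% (Lgals9) of the macrophage level in CD8 T cells, and at 57.8%, 41.3% and 54.8% in NK cells, while Lgals1 was at 252% in CD8 T cells and 192% in NK cells.

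Most lymphocytes carried at least some myeloid RNA: a UMI of C1qa, C1qb or C1qc was found in 809 of 907 CD8 T cells, and among NK cells in 628 of 723. Only 1 CD8 T cell and 2 NK cells had no UMI of the myeloid list. Nearly all cells without a C1q UMI thus held UMIs of other genes on that list. They were also shallower, with a median of 7075 against 8295 UMIs in CD8 T cells and 6373 against 8284.5 in NK cells. The 98 CD8 T cells without a C1q UMI had 737 ± 168 CPM of Lgals3, against 733 ± 233 in those with one (SD, n = 6 mice). The 95 NK cells without one had 408 ± 204 CPM, against 377 ± 84.9 in those with one. Leaving out the 10% of cells with the largest myeloid share gave 722 CPM in CD8 T cells and 383 in NK cells, against 735 and 383 in all cells. Cells thinned to 2000 UMIs, so that depth is equal, had a Lgals3 UMI in 63.5% of CD8 T cells, 34.2% of NK cells, 77.0% of macrophages and 86.3% of monocytes. The same thinning found C1qa in 21.5% of CD8 T and in 19.8% of NK cells, and Cd3e in 0.343% of macrophages, genes that mark another cell type. Without thinning the Lgals3 shares were 87.4%, 61.1%, 98.2% and 98.9%, at median depths of 8158, 7880, 15222 and 9337 UMIs. Taking away free RNA scaled to the median myeloid gene, 99.9 CPM of Lgals3 in CD8 T cells and 76.5 in NK cells, left 43.9% and 21.3% of the macrophage level. The part of myeloid RNA in the Lgals3 level of the lymphocytes was not tested beyond these values.

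**Figure D4:**
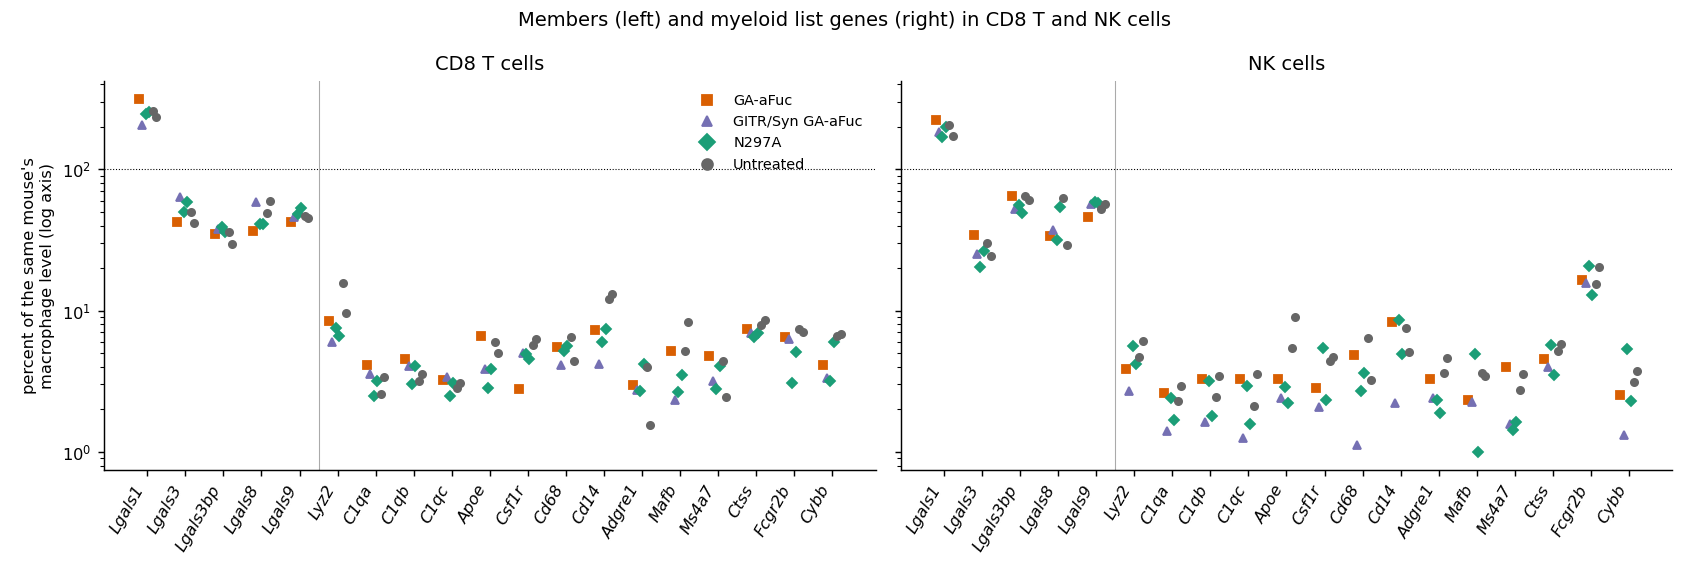
Level of the members and of 14 myeloid list genes in CD8 T cells (left panel) and NK cells (right panel), as percent of the macrophage level of the same mouse (log axis), 1 point per mouse coloured by treatment. In CD8 T cells Lgals3 lies at 41.9% to 64.1% and the means of the myeloid genes at 3.02% to 8.98%, and in NK cells Fcgr2b, at 16.9%, is the myeloid gene nearest to Lgals3.

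Lgals3 was also uneven among the lymphocyte clusters. CD8 clusters 33, 44 and 16 had 995, 896 and 853 CPM, and clusters 23 and 38, the Tcf7-high and the dividing one, had 435 and 401 CPM. In NK cells clusters 48 and 20 had 590.2 and 473 CPM, and clusters 26 and 19 had 204 and 181 CPM. Within CD8 T cells cluster 38 was high in Lgals1 and low in Lgals3, while cluster 33 was highest in both.

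Treatments were compared with edgeR's quasi-likelihood test on UMIs summed per mouse, in the 5 cell types with at least 20 cells in each mouse, with Benjamini-Hochberg adjustment over all genes of a cell type and a threshold of 0.05. Each gene's fit had 2 residual degrees of freedom, and the test also borrowed the spread of the other genes of that cell type. The p-values depend on this shared spread. The single GA-aFuc and GITR/Syn GA-aFuc mice are assumed to vary like the mice of the other groups. The 3 comparisons with Untreated share their control mice. These tests ask whether antibodies that differ in Fc part and agonism go with different galectin levels. The members were chosen with their levels by treatment in these same mice already known. The p-values below therefore describe these mice and are not independent evidence. Of 100 tests of a member, 2 passed, both of Lgals3, and in the other 4 members none of 80 did, in edgeR or in any alternative run (smallest adjusted p = 0.726, log2 changes from -0.45 to 0.40, with 3 tests at an unadjusted p under 0.05).

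The clearest change was in the CD8 T cells of the GITR/Syn GA-aFuc mouse. Lgals3 was 1170.4 CPM there, against 547 and 606 CPM in the Untreated mice, with 657 CPM in the GA-aFuc mouse and 705 and 727 CPM in the N297A mice. The GITR/Syn GA-aFuc mouse lay above the other 5, which did not overlap it. The log2 change against Untreated was 1.04 (SE 0.14, edgeR adjusted p = 0.000325), 1 of 25 member tests in this comparison, in which 0.106% of 49849 tests over all genes were called. Without Untreated replicate 1 the adjusted p was 0.0522, and without Untreated replicate 2 it was 0.134, with log2 changes of 0.97 and 1.12. One cell held 268 of that mouse's 1676 CD8 Lgals3 UMIs. Without the cell with the most Lgals3 in each mouse, an alternative chosen after the data were seen, the log2 change was 0.92 (adjusted p = 0.0011). Among the other alternatives the log2 change stayed between 0.80 and 1.11 and the call was kept. In each of the 5 CD8 clusters the GITR/Syn GA-aFuc mouse exceeded both Untreated mice, with at least 8 cells per mouse and cluster. In cluster 33, for example, it had 1737 CPM against 647 and 863 CPM. In cluster 23 it lay at 463 CPM, below the GA-aFuc mouse (487 CPM) and N297A replicate 1 (664 CPM). In the other CD8 clusters it was above the GA-aFuc and N297A mice too. The clusters hold cells of the same mice, so they are not replicates. The summed myeloid list in these CD8 T cells was 1439 CPM in the GITR/Syn GA-aFuc mouse, against 1824 and 1494 CPM in the Untreated mice.

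The GITR/Syn GA-aFuc mouse also had the highest Lgals3 in monocytes and macrophages, without passing the test. In monocytes it had 2362 CPM, against 1269 and 1623 CPM in Untreated mice (log2 change 0.72, SE 0.14, adjusted p = 0.136). In macrophages it had 1825 CPM, against 1103 and 1448 CPM in Untreated mice (log2 change 0.50, adjusted p = 0.906). It lay above both Untreated mice in 10 of 14 monocyte clusters and 10 of 20 macrophage clusters with at least 8 cells per mouse. Outside macrophage clusters 9 and 39 it had 1427 CPM, against 976 and 1211 CPM. In the same monocytes 3 of the 8 lipid-associated list genes passed the test and rose, in 32 tests over the 5 cell types. Over all genes 0.106% of 49849 tests were called in this comparison. DESeq2 called 2 and limma-voom 3 of the 32 list tests. Gpnmb, a lysosomal glycoprotein gene, had 12.4 CPM against 1.96 and 2.33 CPM in Untreated mice (adjusted p = 0.0367), Fabp5, a fatty acid binding protein gene, 157 against 63.3 and 65.8 CPM, and Ctsd 374 against 209 and 221 CPM (both adjusted p = 0.0343). The median log2 change of this list was 0.26, against -0.01 over all genes tested.

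In NK cells the GA-aFuc mouse had the most Lgals3, 535 CPM, against 288 and 326 CPM in the N297A mice and 334 and 351 CPM in the Untreated mice. The GITR/Syn GA-aFuc mouse, at 462 CPM, also lay above all N297A and Untreated mice (log2 change against Untreated 0.48, SE 0.15, edgeR adjusted p = 0.738). For GA-aFuc against N297A the log2 change was 0.86 (SE 0.15, edgeR adjusted p = 0.0105), 1 of 25 member tests in this comparison, in which 0.0421% of 49849 tests were called. This call was lost in 7 of 14 alternatives, with adjusted p = 0.0531 and 0.0821 without N297A replicates 1 and 2, and 0.376 and 0.312 without Untreated replicates 1 and 2. It was 0.243 with DESeq2, 0.0724 without the top 5% of cells by UMIs and 0.857 with a hashtag share of at least 90%. The log2 change stayed between 0.66 and 1.00 in all 14. Against Untreated the log2 change in NK cells was 0.70 (SE 0.15, adjusted p = 0.0811), the smallest p of the 25 member tests, of which 0 were called by edgeR and by DESeq2 and 3 had an unadjusted p under 0.05. In that comparison 0.0863% of all tests were called, and 2554 of 49849 had an unadjusted p under 0.05. The GA-aFuc mouse exceeded both N297A mice in each of the 5 NK clusters with at least 8 cells in all 3 mice. In cluster 20, for example, it had 605 CPM against 310.1 and 435 CPM. These clusters too hold cells of the same mice. It also had more of its NK cells in cluster 48, the one richest in Lgals3, at 22.1% against 10.0% and 8.96% in the N297A mice. The summed myeloid list in NK cells was 1216 CPM in the GA-aFuc mouse, against 1309 and 859 CPM in the N297A mice.

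No member passed the test in N297A mice against Untreated mice, the only comparison with 2 mice on each side, by edgeR or by DESeq2, and 1 of 25 tests had an unadjusted p under 0.05. In this comparison 0.01% of all 49849 tests were called, and 1759 had an unadjusted p under 0.05. The smallest p was again for Lgals3 in CD8 T cells, with 705 and 727 CPM in N297A mice, against 547 and 606 CPM in Untreated mice (log2 change 0.34, SE 0.12, adjusted p = 0.893). The groups did not overlap there. Over the 3 antibodies and 5 cell types, 14 of the 15 Lgals3 log2 changes against Untreated were above 0, but the same Untreated mice stand in all of them.

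**Figure D5:**
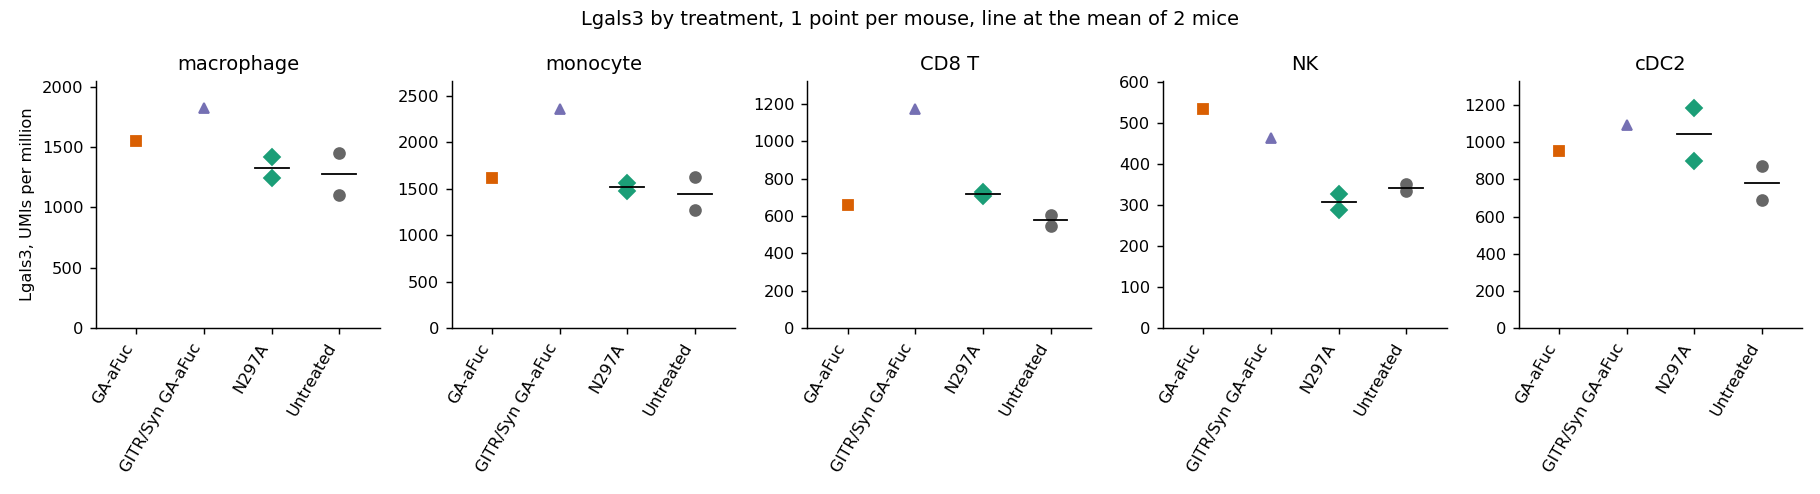
Lgals3 in CPM (linear axis) by treatment in the 5 larger cell types, 1 point per mouse, with a line at the mean where a treatment has 2 mice. The GITR/Syn GA-aFuc mouse is highest in CD8 T cells (1170.4 CPM), monocytes (2362 CPM) and macrophages (1825 CPM), and the GA-aFuc mouse in NK cells (535 CPM).

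Of 17 proposed ligands and counter-receptors, in 76 tests per comparison, 1 test passed: Cd274, the gene of PD-L1, rose in monocytes of the GA-aFuc mouse to 515 CPM, against 307 and 269 CPM in Untreated mice (log2 change 0.83, SE 0.13, adjusted p = 0.0353). The list's median log2 change there was 0.02, against -0.00467 over all genes, of whose 49849 tests 0.0863% were called. Within the 5 larger cell types, the highest levels on this list were those of Ptprc, which encodes CD45, at 1537 CPM in NK cells and 1190 CPM in CD8 T cells, Cd44, a hyaluronan receptor, at 783 CPM in monocytes, Cd47, a signal against phagocytosis, at 683 CPM in NK cells, and Itgb1, an integrin subunit, at 662 CPM in NK cells. Of 10 glycan enzymes and of 9 tested endosome and autophagy partners, 0 tests passed in any of 4 comparisons by edgeR, DESeq2 or limma-voom. An unadjusted edgeR p under 0.05 was found in 2 to 6 of 46 and 1 to 4 of 39 tests. Over all genes it was found in 1759 to 2798 of 49849 tests per comparison. Mgat5, whose branched glycans bind galectins, was highest in NK cells at 533 CPM, against 178 CPM in CD8 T cells and 311 CPM in macrophages. Man2a1, an enzyme of the same route, was highest in macrophages at 265 CPM, and B4galt1, which adds the galactose that galectins bind, in NK cells at 209.7 CPM.

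Of the 12 interferon induced genes, in 60 tests per comparison, 1 passed: Ifi44 rose in monocytes of the GA-aFuc mouse to 114 CPM, against 57.6 and 59.9 CPM in Untreated mice (log2 change 0.95, SE 0.12, adjusted p = 0.0194), and DESeq2 called 0 of the 60. Lgals9 in the same monocytes was 228 CPM, against 241 and 279 CPM in Untreated mice. In N297A mice against Untreated mice 49 of 60 interferon list changes were above 0, with a median log2 change of 0.19. These are 12 genes in 5 cell types of the same mice, so they are not 60 separate results. By edgeR, DESeq2 or limma-voom 0 passed, with 13 at an unadjusted edgeR p under 0.05. Over all genes the median log2 change was -0.000364, and 1759 of 49849 tests were at such a p. Of 11 T cell state genes, in 46 tests per comparison, 1 rose and 3 fell in the GITR/Syn GA-aFuc mouse against Untreated mice, while DESeq2 and limma-voom called 1 each. Over all genes edgeR called 0.106% of 49849 tests in this comparison. Ccr7, a homing receptor of naive T cells, fell in its CD8 T cells to 4.89 CPM, against 24.8 and 30.1 CPM (adjusted p = 0.0461). The others lay in myeloid cells, where Il7r, a cytokine receptor gene, rose in monocytes to 155 CPM, against at most 60.2 CPM in an Untreated mouse, and Top2a fell in cDC2 to 11.2 CPM, against 119 and 145 CPM (adjusted p = 0.0343 and 0.00351). Mki67 was at 0 UMIs in the 34 cDC2 of that mouse, which allows a level of up to 8.43 CPM, against 30.7 and 72.4 CPM in Untreated mice (adjusted p = 0.0345).

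Other galectin genes had few UMIs in this sort. Lgals2, Lgals12 and Grifin, a galectin-like lens protein gene, had at most 8 UMIs in any cell type. Lgalsl, a galectin-like gene, had 14.3 CPM in Tregs, from 7 UMIs, 12.9 CPM in CD8 T cells and 10.5 CPM in NK cells. Lgals4, an intestinal galectin, had 70 UMIs in the 4104 macrophages, 25 UMIs in CD8 T cells and 8 in the 21 pDC. Lgals7, known from skin, had more in T cells: 70 UMIs in CD4 T cells, in 15 of 97 cells and 5 of 6 mice, with 20 of them in 1 cell, and 56 UMIs in Tregs, in 7 of 74 cells, with 35 of them in 1 cell. CD8 T cells had 51 Lgals7 UMIs, in 37 of 907 cells and all 6 mice. Macrophages, monocytes and NK cells had 17, 1 and 2 Lgals7 UMIs. Of 6 tests of these genes per comparison 0 passed by edgeR, DESeq2 or limma-voom, and 0 had an unadjusted p under 0.05.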

How the data were processed

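The authors deposited raw UMI counts per feature and barcode of 1 library, made with Cell Ranger 9.0.0 per the file headers on a combined human (GRCh38) and mouse (GRCm39) reference; the deposited counts were not normalized, and the sources used here do not give how cells were filtered and clustered. Of 19210 table entries, 8767 had at least 1000 mouse UMIs here; of these, 33 whose top hashtag belonged to a different treatment and 18 sharing a barcode were dropped. Each hashtag was taken as 1 mouse, with the treatment that most of its cells have in the deposited cell table. Replicates are thus read as separate animals, though the labels do not say which hashtag belongs to which mouse. No doublet caller was run; an alternative without the 5% of cells richest in UMIs stands in for it. CPM were computed over mouse UMIs. Tests used edgeR 4.0.16 (R 4.3.3) with TMM scaling and filterByExpr on sums per mouse, checked on simulated data; DESeq2 1.42.0, limma-voom 3.58.1, other filters and leaving out each mouse were alternatives. Named genes followed a rule: the 5 members, the 3 genes most like each, up to 4 abundant genes per list, and list genes past the threshold; Tcf7, S1pr1, Sqstm1 and Gzmb in single clusters were picked after their values were seen. The members and lists were chosen with earlier results of these data known, so agreement between them is not independent evidence. The 5 members had 337869 UMIs in the used cells, against 3 UMIs for the 19 human galectin features. Promoters are from RefSeq on GRCm38.p6, another build than the files', so no position was joined to the counts.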

Additional observations from a re-analysis of the deposited data

Results flagged for a closer look

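In 35 groups of 4 to 6 mice, the 5 members in 7 cell types with mice of all treatments pooled, the outlying mouse of 4 groups lay farther from the rest than Dixon's criterion allows; chance alone flags about 1 in 20 such groups. Lgals3 was highest in the GITR/Syn GA-aFuc mouse both in CD8 T cells (1170.4 CPM) and in monocytes (2362 CPM), which is the treatment difference of the report. Lgals1 in cDC2 was highest in Untreated replicate 1, at 836 CPM, from 26 cells. Lgals3bp in CD4 T cells was highest in Untreated replicate 2, at 257 CPM, from 12 cells.

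Lgals3 lay on opposite sides in different cell types when N297A mice were set against Untreated mice, and in each of these types both N297A mice were on one side of both Untreated mice. Its log2 change was 0.34 in CD8 T cells and 0.40 in cDC2, and -0.16 in NK cells. The difference between the cell types was not tested, and none of the 3 changes passed its own test.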

How the results depend on the processing

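Of the 2 called Lgals3 tests, that in CD8 T cells (GITR/Syn GA-aFuc against Untreated) kept its direction in 14 alternatives and its call in 12, and that in NK cells (GA-aFuc against N297A) kept its direction in 14 and its call in 7. One of the 14, leaving out macrophage clusters 9 and 39, does not touch these cells; it, the top Lgals3 cell and the myeloid share were chosen after the data were seen. The call in NK cells was lost with DESeq2, without the top 5% of cells by UMIs, with a hashtag share of at least 90% and without any 1 of the N297A or Untreated mice, which leaves 0 member calls in that comparison. Lgals3 in NK cells of GA-aFuc against Untreated passed, as the 1 member call, without a filter, with limma-voom, without the top Lgals3 cell per mouse and without N297A replicate 1. Without a filter Lgals3 in monocytes also passed in GITR/Syn GA-aFuc against Untreated, for 2 calls. Leaving out 1 mouse at a time gave 0 to 1 member calls for GA-aFuc against Untreated and against N297A and 1 for GITR/Syn GA-aFuc, which without either Untreated mouse was Lgals3 in monocytes.

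Calls over all genes, in the order N297A against Untreated, GA-aFuc against Untreated, GITR/Syn GA-aFuc against Untreated, GA-aFuc against N297A, were 5, 43, 53 and 21. They were 67, 273, 292 and 146 without a filter and 2, 20, 24 and 7 with DESeq2. For GITR/Syn GA-aFuc limma-voom gave 33. For N297A a hashtag share of at least 90% gave 11 and leaving out the top 10% by myeloid share gave 3. Leaving out 1 mouse gave 3 to 153, 44 to 130, 42 to 195 and 24 to 86, with 153 without N297A replicate 2, 195 without either N297A mouse, and 130 and 86 without N297A replicate 1.

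Lgals3 in NK cells as percent of macrophages was 21.3% with scaled free RNA subtracted and 20.3% as the mean of per-cell shares. The mean of per-cell shares put Lgals3 5.59 times higher in monocytes than in NK cells. TMM scaling gave 3.21 for Lgals3bp (macrophages over CD8 T cells) and 2.88 for Lgals9 (monocytes over CD8 T cells). The cause was not tested in any of these. The other alternatives for these levels moved them by less than 1 SD between mice, and leaving out 1 mouse gave 48.5% to 52.9% for CD8 T cells and 25.3% to 28.1% for NK cells. No paired analysis was possible because each mouse got 1 treatment and mice of different treatments share no animal, and the replicate numbers follow hashtag order. Depth limits Lgals8 in cDC1 and mregDC, and groups of 1 mouse limit each comparison with GA-aFuc or GITR/Syn GA-aFuc.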
